A study of Mus musculus and Homo sapiens with 12 samples.

Results

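The data describe 10 genes of megakaryocytes and platelets in blood progenitors with normal or reduced RNA of DDX21, an RNA helicase. They were ITGA2B, ITGB3, GP1BA, GP1BB, GP9, PF4, VWF, F2RL2, SELP and TREML1, and were matched by symbol without regard to case. All 10 were found among the 55487 mouse genes, and 8 among the 78932 human genes. No file used here pairs the symbols GP1BB and PF4 with a human identifier, so these 2 were not analysed in the human cells.

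Messenger RNA was sequenced in 12 libraries from 2 experiments, with 3 libraries in each of the 4 groups. The mouse experiment used live cells from fetal liver at E13.5 (embryonic age in days) that were negative for the lineage antibodies Gr1, Cd11b, CD3, B220 and Ter119 and positive for Kit (LK cells). Both genotypes carried loxP-flanked Ddx21 (Ddx21f/f), the knockout group with Vav-Cre (cKO, given as Vav1-Cre in the series text) and the wild-type group (WT) without it. Vav-Cre acts across blood lineages, and the lineage antibodies include none against a megakaryocyte protein. The human experiment used blood stem cell-like cells grown from H1, an embryonic stem cell line, transduced with a lentivirus that carried mCherry and either a control hairpin, here shNC, or the DDX21 hairpin, here shDDX21. Sorting followed 2 days after transduction, on CD34, CD43, CD45 and presence of the hairpin vector. All human cells come from this 1 line. The labels do not say whether libraries of a group came from separate embryos or cultures, so p-values measure only the spread between these libraries. In bulk RNA, fewer cells of a type and less RNA per cell cannot be told apart.

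Megakaryocytes are the large bone marrow and fetal liver cells that shed platelets. They arise from Kit-positive progenitors, and several of the genes here are already transcribed at that stage, ITGA2B in particular, whose product CD41 also marks early embryonic blood progenitors. The 10 genes fall into receptors that bind platelets to the vessel wall and to each other, a thrombin-cleaved receptor, and proteins stored in platelet granules.

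Mouse libraries held 21116079 to 23898130 counts and human libraries 15289510 to 19798608. The targeted gene checked the labels: Ddx21 lay between 1410 and 1432 CPM (counts scaled to library size) in WT and between 276.0 and 282.9 CPM in cKO, and DDX21 between 465.3 and 476.9 CPM in shNC and between 67.0 and 69.2 CPM in shDDX21. Libraries of the sorted populations carried Kit, Cd34, Ptprc and Spn. Their sum was 885.3 to 916.9 CPM in WT and 924.9 to 940.2 CPM in cKO, and 1195 to 1213 CPM in shNC and 1421 to 1449 CPM in shDDX21. The single genes moved with the perturbation. Mouse Cd34 (133.7 to 215.2 CPM) and Ptprc (70.9 to 101.3 CPM) rose, and Kit (362.3 to 316.9 CPM) and Spn (331.2 to 300.7 CPM) fell. In the human cells KIT, CD34 and SPN rose and PTPRC fell. In the mouse, WT replicate 3 stood apart: the chi-square per degree of freedom over gene counts was 1.96 between WT replicates 1 and 2 but 15.7 and 10.9 against replicate 3. Among cKO libraries it was 25.1 between replicates 1 and 2 and 7.25 and 7.82 for the other pairs, and the deviations of WT replicate 3 and cKO replicate 2 from their group means correlated at 0.714 across genes. Human replicates differed by 1.54 to 1.71, close to counting noise.

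In mouse cKO cells, 4 of the 9 members that passed the filter on low counts were called higher and 0 lower. These were the 2 subunits of the fibrinogen receptor, Itga2b and Itgb3, the von Willebrand factor receptor subunit Gp1ba, and the thrombin-cleaved receptor F2rl2. The granule genes Pf4, Vwf, Selp and Treml1, and Gp9, did not pass. In the same fit 36.5% of 14918 genes were called, 20.7% higher and 15.8% lower, against which the count of members is to be read. Calls required an adjusted p under 0.05 (Benjamini-Hochberg, over all genes tested) in edgeR's quasi-likelihood test, which also gives every adjusted p below. The median log2 fold change was 0.34 over the 9 tested members and 0.00057 over all genes tested. With libraries scaled to total counts, the calls over all genes shifted from 3083 higher and 2360 lower to 3565 and 1612, while the members' count stayed at 4 higher and 0 lower.

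The human cells differed in their calls: 7 of the 8 matched members changed, 4 higher and 3 lower in shDDX21. ITGA2B, GP9, F2RL2 and SELP rose, and ITGB3, VWF and TREML1 fell. Here 52.7% of 20188 genes were called, 25.3% higher and 27.4% lower. With upper-quartile scaling the calls over all genes shifted from 5105 higher and 5526 lower to 6255 and 4635, and the members stood at 5 higher and 3 lower. The changes were small: only VWF, at -1.09 on the log2 scale, reached 2-fold, against Itga2b and F2rl2 in the mouse. The median log2 fold change was 0.15 over the 8 members and 0.0052 over all genes tested.

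**Figure D1:**
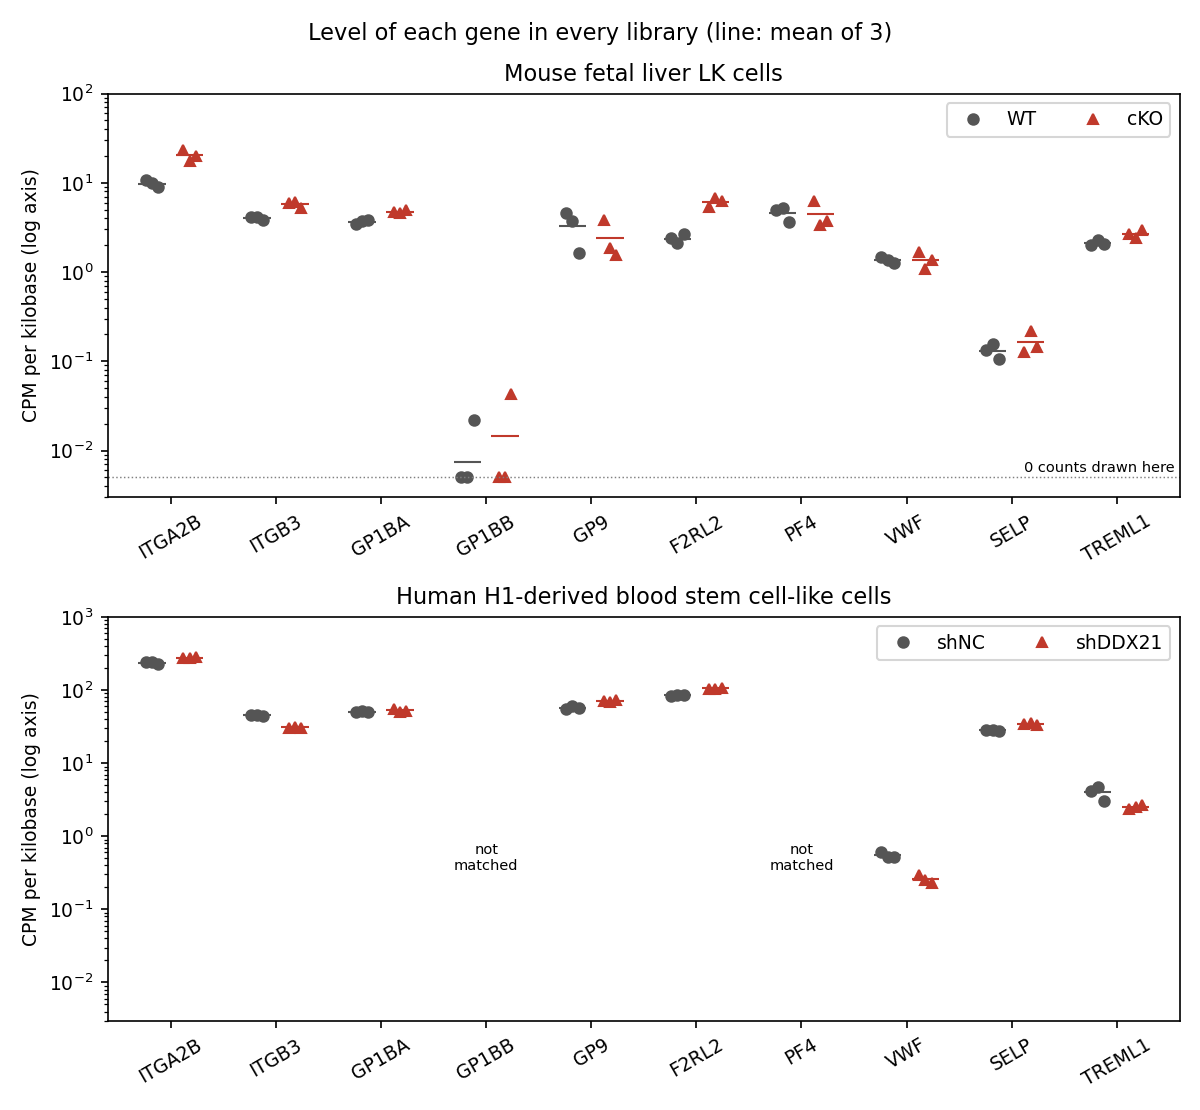
Level of each gene in every library, as CPM per kilobase of exon on a log axis, for mouse (top) and human (bottom). Each point is a library, circles for controls and triangles for perturbed libraries, with a line at the mean of 3. Human ITGA2B lies above all other genes shown, and mouse Gp1bb lies at 0 to 2 counts.

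Levels were compared between genes per kilobase of exon, as mean CPM per kilobase in controls. In mouse WT cells Itga2b was highest at 9.81 ± 0.876 (SD, n = 3). Pf4 (4.64 ± 0.851), Itgb3 (4.04 ± 0.213), Gp1ba (3.64 ± 0.197) and Gp9 (3.31 ± 1.5) followed, then F2rl2 (2.37 ± 0.267) and Treml1 (2.12 ± 0.124). From Pf4 to Treml1, each neighbour in that order lay within the sum of both SDs. Vwf was lower at 1.37 ± 0.0889 and Selp lower still at 0.131 ± 0.0247. Among all tested mouse genes, ranked on the same scale, Itga2b stood at percentile 66.8, Pf4 at 51.9, and Selp at 4.95.

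Most of these genes ranked higher among all genes in the human control cells. ITGA2B reached 237.2 ± 5.76 CPM per kilobase (SD, n = 3) in shNC, percentile 99.7 of tested genes. F2RL2 was next at 85.5 ± 1.69, then GP9 at 57.3 ± 2.81, GP1BA at 50.3 ± 0.915, ITGB3 at 45.1 ± 0.757 and SELP at 28.4 ± 0.520, each neighbour separated by more than its SD. These 6 stood at percentiles 93.9 to 99.7. The place of ITGB3 in this order is uncertain, because 33.2% of its exon bases are shared with an unnamed gene on the same strand. Its level was divided by the full exon length, and how shared reads were counted is not given. TREML1 (3.99 ± 0.884, percentile 58.4) and VWF (0.555 ± 0.0489, percentile 19.4) ranked lower. SELP and VWF therefore changed places between the experiments: Vwf exceeded Selp in the mouse, and SELP exceeded VWF in the human cells. Species and cell source cannot be told apart here, so these levels are set side by side with no test.

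Mouse promoters are shown for the called genes Itga2b, F2rl2 and Gp1ba and for the uncalled Gp9, because megakaryocyte genes are classically controlled by GATA and ETS factors. The sequences are the 250 bases before the RefSeq start on GRCm38.p6, 5′ to 3′ on the gene's strand, and 8 of the 10 members matched the RefSeq table. Capitals mark matches on either strand. The GATA motif was searched with the spellings AGATAA and TGATAA only, and other spellings of it, such as AGATAG and TGATAG, were not searched. The ETS motif was likewise searched with the spellings AGGAAG and CGGAAG only. No spelling contains another. Most of the Itga2b window and the downstream end of the F2rl2 window lie inside the gene spans of the count table, whose starts differ from those of RefSeq. Coordinates are chr11:102469884-102470133 (minus strand) for Itga2b, chr13:95696670-95696919 (plus strand) for F2rl2, chr11:70638872-70639121 (plus strand) for Gp1ba, chr6:87777820-87778069 (plus strand) for Gp9.
Itga2b: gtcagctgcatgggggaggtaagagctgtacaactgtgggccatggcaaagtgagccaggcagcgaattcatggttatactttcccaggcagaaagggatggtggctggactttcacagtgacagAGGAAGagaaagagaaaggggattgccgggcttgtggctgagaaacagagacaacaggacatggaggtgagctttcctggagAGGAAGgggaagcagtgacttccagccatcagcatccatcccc
F2rl2: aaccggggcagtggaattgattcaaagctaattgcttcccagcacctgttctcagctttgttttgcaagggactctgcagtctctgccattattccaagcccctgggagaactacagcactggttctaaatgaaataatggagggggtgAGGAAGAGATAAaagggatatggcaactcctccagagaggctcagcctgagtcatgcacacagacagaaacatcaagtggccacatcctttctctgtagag
Gp1ba: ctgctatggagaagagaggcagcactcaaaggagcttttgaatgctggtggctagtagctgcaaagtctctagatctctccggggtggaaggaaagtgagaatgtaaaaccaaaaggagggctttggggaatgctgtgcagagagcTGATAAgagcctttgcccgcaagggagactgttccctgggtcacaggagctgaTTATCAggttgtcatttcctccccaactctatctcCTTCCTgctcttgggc
Gp9: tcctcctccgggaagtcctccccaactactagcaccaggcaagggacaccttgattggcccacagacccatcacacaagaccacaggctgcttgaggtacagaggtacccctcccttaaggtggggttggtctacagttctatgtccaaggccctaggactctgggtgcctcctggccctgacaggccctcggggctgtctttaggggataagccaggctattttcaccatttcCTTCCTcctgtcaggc

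In F2rl2 an ETS and a GATA match stood directly side by side. Gp1ba held 2 GATA matches and 1 ETS match, Itga2b 2 ETS matches and Gp9 1. Over the 8 matched members, 7 windows held an ETS match and 2 a GATA match. Of all 32851 mouse windows of this length, 39.2% held an ETS match and 16.6% a GATA match. All of these counts and shares cover the searched spellings only, so a window may hold further sites in other spellings. The matches describe these letters only and do not show binding.

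The integrin αIIbβ3 is the fibrinogen receptor through which platelets aggregate, and it reaches the surface only as a dimer of both subunits. Itga2b, the alpha subunit (ENSMUSG00000034664, chr11:102453297-102470122, minus strand, GRCm38), had 57.8, 54.3 and 48.4 CPM in WT and 126.5, 94.4 and 109.9 CPM in cKO. Every cKO library lay above every WT library. The mean went from 53.5 ± 4.78 to 110.3 ± 16.0 CPM (SD, n = 3 each), or 1.04 on the log2 scale (SE of 0.11 and adjusted p of 0.000452). Among all tested genes this change stood at percentile 92.9.

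Itgb3, the beta subunit (ENSMUSG00000020689, chr11:104608000-104670476, plus strand), had 24.5, 24.7 and 22.4 CPM in WT and 35.2, 36.3 and 31.1 CPM in cKO. The groups again did not overlap, and the log2 fold change was 0.52 (SE of 0.08 and adjusted p of 0.0025). Groups that did not overlap were common: 5 of the 9 tested members, and 49.0% of all tested genes, had them.

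In human cells the 2 subunits moved in opposite directions. ITGA2B (ENSG00000005961, hg38 chr17:44372180-44389649, minus strand) had 1369.8, 1370.2 and 1313 CPM in shNC and 1586, 1570.3 and 1590.3 CPM in shDDX21. The 3 knockdown libraries lay above the 3 controls, with a log2 fold change of 0.23 (SE of 0.019 and adjusted p of 1.71e-17). ITGB3 (ENSG00000259207, chr17:47253827-47313743, plus strand) had 308.2, 313.5 and 303.2 CPM in shNC and 210.1, 216.1 and 207.5 CPM in shDDX21. All knockdown libraries lay below all controls, and the log2 fold change was -0.55 (SE of 0.026 and adjusted p of 5.96e-30). An unnamed gene (ENSG00000259753) on the same strand covers 33.2% of the ITGB3 exon bases and had 0 counts in all 6 libraries. How reads shared by overlapping genes were counted is not given in the sources used here. Groups did not overlap for 7 of the 8 human members and for 57.4% of all tested human genes.

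The ratio of the alpha to the beta transcript, per kilobase, was higher in perturbed cells of both species, a measure chosen after the values were seen. It was 2.55, 2.38 and 2.33 in WT and 3.88, 2.81 and 3.83 in cKO, and 5.33, 5.24 and 5.19 in shNC and 9.05, 8.71 and 9.19 in shDDX21. All perturbed libraries lay above all controls in each experiment. On the log2 scale the difference was 0.52 in the mouse and 0.77 in the human cells (exact permutation test, two-sided, p = 0.1 in each, the smallest that 3 against 3 libraries allow). In the mouse it came with 2 rising genes, and in the human cells with 1 rising and 1 falling gene. The size of the human ratio, but not its log2 difference, depends on the exon length used for ITGB3. Of that length, 33.2% is shared with another gene on the same strand.

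**Figure D2:**
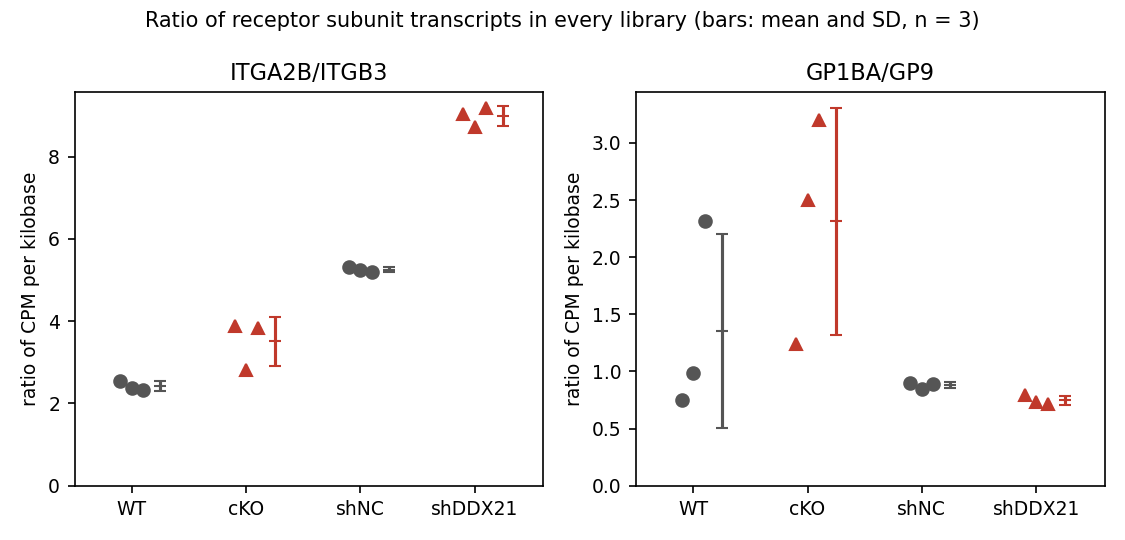
Ratio of subunit transcripts per kilobase of exon in every library, for ITGA2B over ITGB3 (left) and GP1BA over GP9 (right). Circles are control and triangles perturbed libraries, with the mean and SD (n = 3) beside them. The integrin ratio is higher in every perturbed library of each experiment, whereas the GP1BA to GP9 ratio spreads from 0.754 to 3.20 over the mouse libraries.

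The GPIb-IX complex holds platelets to von Willebrand factor on the vessel wall. GP1BA carries the binding site, GP1BB is disulfide-linked to it, and GP9 is needed for the complex to reach the surface. Mouse Gp1ba (ENSMUSG00000050675, chr11:70639122-70642036, plus strand) had 9.28, 10.1 and 10.3 CPM in WT and 12.8, 12.5 and 13.4 CPM in cKO. The groups did not overlap, and the log2 fold change was 0.39 (SE of 0.084 and adjusted p of 0.0102).

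Gp9 (ENSMUSG00000030054, chr6:87778072-87779768, plus strand) was the least even of the tested members. WT libraries held 89, 68 and 31 of its counts and cKO libraries 77, 40 and 30, or 3.99, 3.31 and 1.44 CPM against 3.35, 1.62 and 1.36 CPM. Both groups spanned more than a 2-fold range and overlapped, so the log2 fold change of -0.47 (SE of 0.45 and adjusted p of 0.447) lay within the spread between libraries. It was -0.80 without WT replicate 3 and -0.95 without cKO replicate 1, and -0.16, -0.29 and -0.24 without WT replicate 1, cKO replicate 2 and cKO replicate 3, none of them a call. The Gp1ba to Gp9 ratio per kilobase was 1.35 ± 0.846 in WT and 2.31 ± 0.992 in cKO (SD, n = 3 each; exact permutation test, two-sided, p = 0.2), a log2 difference of 0.84 that became 1.32 without WT replicate 3, 0.51 without WT replicate 1 and 0.56 without cKO replicate 3.

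Gp1bb (ENSMUSG00000050761, chr16:18620317-18622403, minus strand) was practically uncounted, with 0, 0 and 1 counts over WT libraries and 0, 0 and 2 over cKO libraries, at or under the floor of 3 counts per library, and was not tested. Of its exon bases, 91.1% are shared with Sept5 on the same strand, which had 0 to 4 counts. How reads in shared exons were counted is not given in the sources used here, so these counts do not show how much Gp1bb RNA was present.

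In the human cells GP9 rose and GP1BA did not pass the test. GP9 (ENSG00000169704, chr3:129060779-129062406, plus strand) had 48.5, 53.1 and 49.2 CPM in shNC and 61.5, 60.6 and 63.3 CPM in shDDX21, without overlap. Its log2 fold change was 0.30 (SE of 0.046 and adjusted p of 4.66e-08). GP1BA (ENSG00000185245, chr17:4932277-4935023, plus strand) had 124.8, 129.2 and 125.7 CPM in shNC and 139.8, 127.6 and 129.8 CPM in shDDX21. The groups overlapped, with a log2 fold change of 0.068 (SE of 0.033 and adjusted p of 0.0788). GP1BA became a call with upper-quartile scaling (0.14, adjusted p 0.000251), with at least 10 counts in every library (0.078, adjusted p 0.0358), without shDDX21 replicate 2 (0.092, adjusted p 0.0317) and without shDDX21 replicate 3 (0.084, adjusted p 0.0492), and over its 14 alternatives the adjusted p ranged from 0.000251 to 0.563. The GP1BA to GP9 ratio was 0.879 ± 0.0265 in shNC and 0.748 ± 0.0404 in shDDX21 (SD, n = 3 each; exact permutation test, two-sided, p = 0.1).

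F2RL2 encodes PAR3, a protease-activated receptor cut by thrombin that serves as a cofactor for PAR4 on mouse platelets. Mouse F2rl2 (ENSMUSG00000021675, chr13:95696853-95702739, plus strand) had 5.97, 5.26 and 6.59 CPM in WT and 13.54, 16.7 and 15.5 CPM in cKO. All cKO libraries lay more than 2-fold above all WT libraries, and its log2 fold change of 1.36 (SE of 0.12 and adjusted p of 0.000181) was the largest among the members. Its span overlaps Iqgap2 on the opposite strand, with no exon base shared. Iqgap2 had 3427 to 3809 counts in WT and 3878 to 4781 in cKO. These counts are not scaled to library size and do not by themselves show a change.

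Human F2RL2 (ENSG00000164220, chr5:76615482-76623413, minus strand) had 284.9, 295.8 and 293.5 CPM in shNC and 353.6, 355.3 and 366.2 CPM in shDDX21. The groups did not overlap, with a log2 fold change of 0.30 (SE of 0.024 and adjusted p of 9.40e-18). It shares 2.6% of its exon bases with IQGAP2, whose counts went the other way, from 3877 to 4901 in shNC to 3324 to 3796 in shDDX21.

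**Figure D3:**
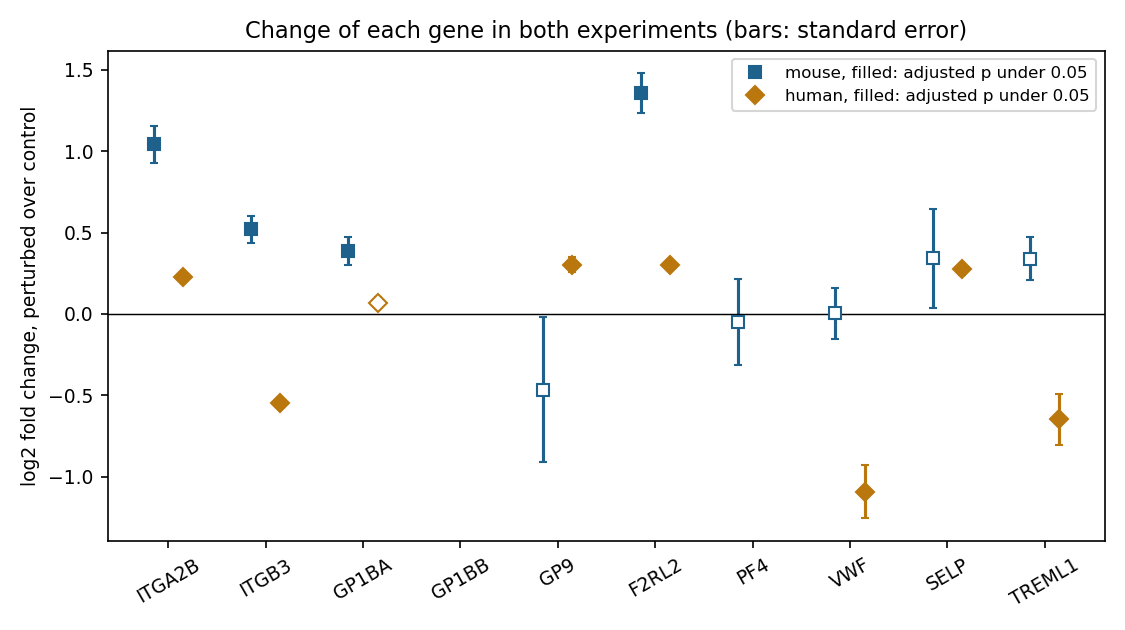
Log2 fold change of each gene, perturbed over control, in mouse (squares) and human (diamonds), with bars for the standard error and filled symbols for an adjusted p under 0.05. ITGA2B and F2RL2 are filled and above 0 in both experiments, while ITGB3 is above 0 in the mouse and below 0 in the human cells.

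The remaining members are cargo or membrane proteins of platelet granules. PF4 is a chemokine of the alpha granule and a classical megakaryocyte marker. Mouse Pf4 (ENSMUSG00000029373, chr5:90772435-90773383, plus strand) had 3.59, 3.80 and 2.65 CPM in WT and 4.53, 2.43 and 2.72 CPM in cKO. The groups overlapped, and the log2 fold change was -0.052 (SE of 0.26 and adjusted p of 0.894).

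VWF carries platelets to injured vessels and is made by endothelial cells as well as megakaryocytes. Vwf (ENSMUSG00000001930, chr6:125546774-125686679, plus strand) had 23.4, 22.0 and 20.5 CPM in WT and 26.9, 17.2 and 21.9 CPM in cKO, so the cKO libraries lay on both sides of WT. Its log2 fold change was 0.0026 (SE of 0.15 and adjusted p of 0.991). Human VWF (ENSG00000110799, chr12:5948877-6124770, minus strand) had 6.35, 5.48 and 5.46 CPM in shNC and 3.08, 2.61 and 2.39 CPM in shDDX21. The groups did not overlap, and the log2 fold change of -1.09 (SE of 0.16 and adjusted p of 2.78e-08) was the largest among the human members. It rests on 84 to 120 counts in shNC and 42 to 60 in shDDX21.

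SELP, or P-selectin, sits in the alpha granule membrane and binds leukocytes once exposed, in platelets and in endothelium. Mouse Selp (ENSMUSG00000026580, chr1:164115264-164150026, plus strand) held 13, 14 and 10 counts in the WT libraries, against 13, 24 and 14 in the cKO libraries. At this depth no difference was detectable (log2 fold change 0.34, SE 0.30, adjusted p 0.411). Human SELP (ENSG00000174175, chr1:169588849-169630193, minus strand) had 99.8, 100.7 and 97.2 CPM in shNC and 118.7, 125.0 and 116.7 CPM in shDDX21. The knockdown libraries lay above the controls, with a log2 fold change of 0.28 (SE of 0.034 and adjusted p of 1.33e-10).

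TREML1 is an alpha granule receptor of the TREM family, found in megakaryocytes and platelets. Mouse Treml1 (ENSMUSG00000023993, chr17:48359916-48367176, plus strand) had 2.83, 3.16 and 2.92 CPM in WT and 3.75, 3.36 and 4.17 CPM in cKO. The groups did not overlap, yet the log2 fold change of 0.34 (SE 0.13) missed the threshold (adjusted p 0.0851, range 0.0536 to 0.353 over 15 alternatives). Human TREML1 (ENSG00000161911, chr6:41149337-41154347, minus strand) had 6.19, 7.18 and 4.56 CPM in shNC and 3.54, 3.79 and 4.04 CPM in shDDX21. All knockdown libraries lay below all controls, with a log2 fold change of -0.65 (SE of 0.16 and adjusted p of 0.000273).

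Whether the effects themselves differed was tested as an interaction across all 12 libraries for genes tested in both experiments, 8 of them members. It was called for 6 of the 8 members, all with the mouse effect above the human one, and for 56.3% of all 10354 matched genes (35.9% with the mouse effect above, 20.4% below). The mouse effect exceeded the human one by 1.10 for VWF (SE of 0.24 and adjusted p of 0.00229), 1.07 for ITGB3 (SE of 0.077 and adjusted p of 3.72e-07) and 1.06 for F2RL2 (SE of 0.10 and adjusted p of 4.81e-06) on the log2 scale. The difference was 0.99 for TREML1, 0.82 for ITGA2B and 0.32 for GP1BA, with adjusted p of 0.0031, 0.000145 and 0.00314. SELP (0.068, SE 0.22, adjusted p 0.851) and GP9 (-0.77, SE 0.40, adjusted p 0.125) were not called. Without WT replicate 3 the GP9 difference was -1.10 (adjusted p 0.00908), and without cKO replicate 1 it was -1.25 (adjusted p 0.00812), both calls, within a range of 0.00812 to 0.384 over 19 alternatives.

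Further megakaryocyte and platelet genes were read from 4 lists, to be set against the 20.7% higher and 15.8% lower among all tested mouse genes. In the mouse, 14 of 20 tested platelet surface receptors were called higher and 2 lower (median log2 fold change 0.87). The 3 with the smallest p were F2r, the thrombin receptor PAR1 (0.84, SE 0.046), F11r, a junctional adhesion molecule (2.19, SE 0.16), and P2rx1, an ATP-gated channel (1.11, SE 0.086), with adjusted p of 1.71e-05, 7.54e-05 and 8.47e-05. Of 19 granule and secreted proteins, 13 were called higher and 2 lower (median 0.81). Serpine2, a protease inhibitor, rose by 6.14 on the log2 scale, from 0.945 ± 0.195 to 67.3 ± 2.00 CPM (SD, n = 3 each) and Pros1, protein S of the anticoagulant pathway, from 13.02 ± 0.891 to 62.0 ± 2.74 CPM (2.25). F13a1, a clotting transglutaminase that monocytes and macrophages also make, fell from 43.3 ± 0.686 to 10.5 ± 0.758 CPM (-2.04). Hepatocyte markers rose in the same cKO libraries (median log2 fold change 4.07), and which cells held the RNA of these secreted proteins, Pros1 included, was not tested.

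The medians of the other mouse lists lay nearer to 0. Of 21 cytoskeleton and platelet release genes, 8 were called higher and 2 lower (median 0.12), led by Plek, a major substrate of protein kinase C in platelets (1.04), Vcl, which links integrins to actin (-0.50), and Rab27b, a granule GTPase (0.88). Of 19 transcription factors, 8 were called higher and 4 lower (median 0.12). The ETS factors Erg and Etv6 rose by 1.01 and 0.58.

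In the human cells, where 52.7% of all tested genes were called, 29 genes of these lists were called higher and 44 lower, or 35 and 38 with upper-quartile scaling. Of 21 surface receptors, 7 were called higher and 13 lower (median -0.19), led by CD226, an adhesion receptor (0.68), CD36, the thrombospondin receptor (-1.24), and PEAR1, an endothelial and platelet contact receptor (0.59). Of 18 granule and secreted proteins, 6 were called higher and 11 lower (median -0.19). ANGPT1, a ligand of the TEK receptor, fell from 72.9 ± 2.61 to 27.3 ± 1.20 CPM (SD, n = 3 each; -1.42), TGFB1 rose by 0.59, and MMRN1, a binder of clotting factor V, fell (-0.58).

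Of 22 cytoskeleton genes, 8 were called higher and 10 lower (median 0.047), with RAB27B at -1.01, DIAPH1, an actin nucleator, at -0.42 and ACTN1, an actin crosslinker, at 0.39. Of 20 transcription factors, 8 were called higher and 10 lower (median -0.084). GATA2 fell from 434.6 ± 7.33 to 199.6 ± 2.77 CPM (SD, n = 3 each; -1.12), LMO2, a bridging cofactor, fell by 0.77 on the log2 scale, and TAL1 rose by 0.54. RAB27B was thus called higher in the mouse and lower in the human cells. So were F2R, P2RX1, SERPINE2, MMRN1, ANGPT1, DIAPH1, LMO2, ERG and ETV6 of the genes named above. TAL1 was called lower in the mouse and higher in the human cells. F11R, PEAR1, PROS1 and ACTN1 were called higher in both experiments, and CD36, F13A1 and VCL lower in both.

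**Figure D4:**
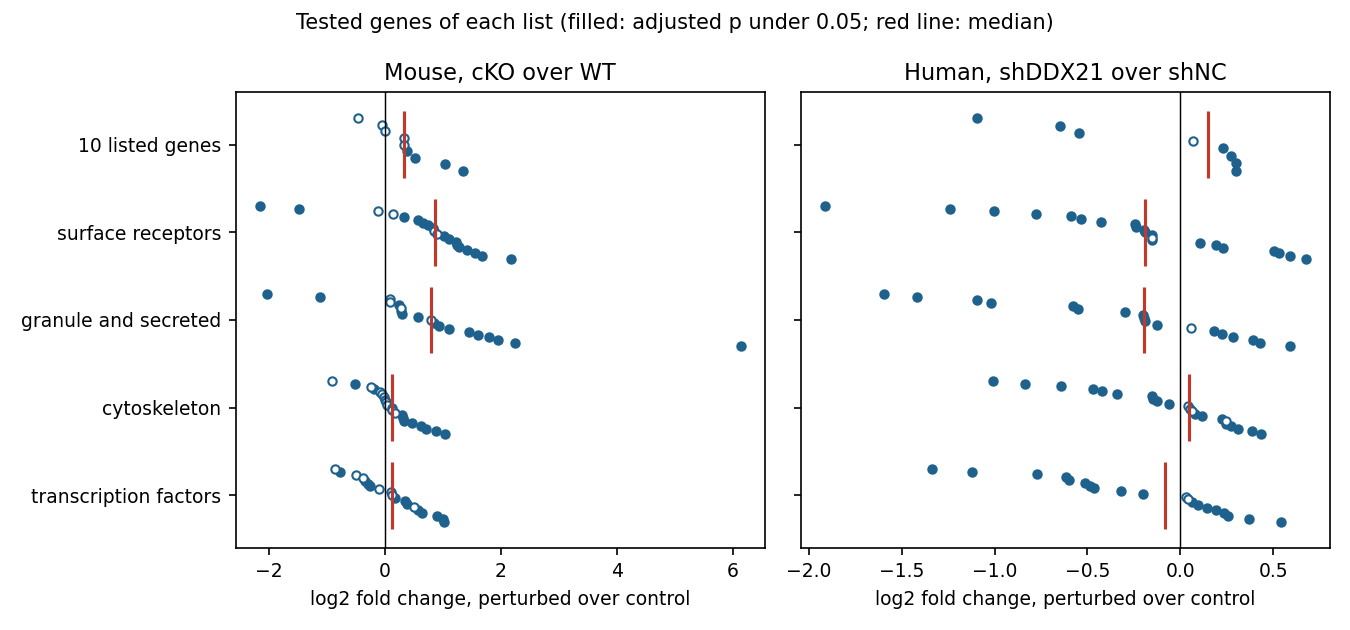
Log2 fold change of each tested gene, perturbed over control, in the 10 listed genes and in 4 lists of other megakaryocyte and platelet genes, for mouse (left) and human (right), each on its own axis. Filled points have an adjusted p under 0.05 and red lines are medians, which are 0.87 and 0.81 for mouse surface receptors and granule proteins and -0.19 and -0.19 for the human ones.

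Some further genes of these lists were chosen after their values were seen. Mouse Gp5, the fourth glycoprotein that joins GPIb-IX, rose (1.02) and human GP5 fell (-0.77), on 17 to 31 counts in shNC and 10 to 19 in shDDX21. The 2 surface receptors called lower in the mouse were P2ry12 (-1.48) and Cd36 (-2.15). P2ry12 held 15 to 23 counts in WT and 4 to 11 in cKO, and Cd36 24 to 30 and 5 to 8. Both were also called lower in the human cells (-1.91 and -1.24). F2rl3, or PAR4, rose by 1.69 in the mouse and fell in the human cells (-0.20). Among transcription factors, Gata1 and Gfi1b fell (-0.35 and -0.78) and Fli1 and Nfe2 rose (0.65 and 0.35) in the mouse. GATA1 and FLI1 rose by 0.37 and 0.19 in the human cells, and GFI1B and NFE2 (0.04 and 0.03) were not called.

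Markers of other cell types moved with the genotype, and their part in these results was not tested. Their calls are to be set against all tested genes, of which 20.7% were called higher and 15.8% lower in the mouse. In the human cells these shares were 25.3% and 27.4%. In the mouse, where Vwf and Selp were not called, 5 of 7 tested endothelial markers were called higher and 0 lower, and their sum went from 59.6 to 67.1 CPM in WT to 111.8 to 119.3 CPM in cKO. Tek (8.004 to 33.1 CPM), Tie1 (11.2 to 25.9 CPM) and Pecam1 (33.6 to 45.3 CPM), which blood stem cells and megakaryocytes also make, held the largest parts of that rise. Emcn (1.26 to 3.51 CPM) and Cdh5 (0.45 to 1.14 CPM) also rose, Kdr and Plvap were not called and Cldn5 was listed at 0 counts. Hepatocyte markers rose (7 of 7 tested, median log2 fold change 4.07) from 14.7 to 16.6 CPM to 50.04 to 54.5 CPM in sum. Trf (10.03 to 13.7 CPM) held most of the WT sum and rose least. Alb went from 0.417 to 12.1 CPM and Afp from 0.857 to 14.4 CPM. Mast cell and basophil markers (2 of 4 higher) went from 72.9 to 75.6 CPM to 95.4 to 102.3 CPM. Macrophage markers (1 of 4 higher, 2 lower) went from 37.5 to 40.9 CPM to 14.5 to 17.4 CPM, with C1qc at 0 counts. Most of that fall was Csf1r (30.5 to 7.20 CPM), Adgre1 also fell (2.19 to 1.02 CPM), and Cd68 rose (5.42 to 6.81 CPM). Erythroid markers (3 of 11 higher, 5 lower) went from 1147 to 1257 CPM to 1020 to 1091 CPM. Genes of the gated lineages (1 of 4 higher, 2 lower) held 73.4 to 78.5 CPM in WT and 100.2 to 108.9 CPM in cKO, nearly all from Ptprc.

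In the human cells, where VWF fell and SELP rose, 4 of 9 endothelial markers were called higher and 3 lower, and their sum went from 1814 to 1860 CPM in shNC to 1648 to 1667 CPM in shDDX21. CDH5, KDR and PLVAP fell and TEK, TIE1, EMCN and LYVE1 rose. KDR (1007 to 813.8 CPM) held the largest part of the fall in the sum. Erythroid markers (5 of 10 higher, 3 lower) went from 711.9 to 726.2 CPM to 765.5 to 786.6 CPM, and macrophage markers (1 of 7 higher, 4 lower) held 523.9 to 537.6 CPM and 527.1 to 539.5 CPM. Within that steady macrophage sum, CSF1R rose (360.6 to 419.5 CPM) and MRC1 (82.8 to 43.8 CPM), C1QA, C1QB and C1QC fell. CD163 and MERTK were not called. Mast cell and basophil markers (0 of 4 higher, 1 lower) held 351.7 to 354.8 CPM and 353.1 to 359.7 CPM, nearly all HDC. Of the hepatocyte markers 2 were matched, both lower, with 8.49 to 10.5 CPM and 5.39 to 5.64 CPM in sum. Genes of the mouse lineage gate, which was not part of the human sort, held 186.2 to 190.8 CPM and 173.0 to 184.6 CPM (1 of 4 higher, 2 lower). Most of this was PTPRC (94.9 to 69.4 CPM), the gene of the sorted CD45, and CD4 (83.9 to 102.9 CPM).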

How the data were processed

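Poly(A) RNA libraries were made from FACS-sorted cells. The deposited raw tables hold read counts per gene with exon lengths and positions; the submitters' processing notes name STAR, featureCounts and DESeq2 and the builds mm10 and hg38, and settings for strand and shared reads are not given in the sources used here. GENCODE M21 holds 99.5% of the mouse identifiers, 99.4% at an identical position. The deposited normalized signal equals the count over 1 constant per library (largest relative deviation 4.97e-10), and the deposited log2 columns give that signal over the control mean per the file headers. These tables were used for symbols only, and mouse symbols were completed from GENCODE M21.

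Counts were tested per experiment with edgeR 4.0.16 in R 4.3.3 (filterByExpr, TMM, glmQLFit and glmQLFTest, two-sided, no covariate), and the interaction in a fit of all 12 libraries with scaling within each experiment. CPM uses TMM-scaled library sizes, and the standard error (SE) was taken as the size of the log2 change divided by √F. The scripts were tested on simulated data. The alternatives were RLE, upper-quartile and total-count scaling, 2 filters, DESeq2 1.42.0, limma 3.58.1 (voom), a replicate block, a 2-fold minimum, leaving out each library, and, chosen after seeing the data, leaving out WT replicate 3 and cKO replicate 2 together. Floors cover counting error only.

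The members and the 4 gene lists were chosen with earlier results of these data known. All members are named, with the 3 genes of smallest p among the called genes of each list, apart from an item that is not reported here. Marker lists were endothelial, hepatocyte, erythroid, mast and basophil, macrophage, sorted population and gated lineage.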

Additional observations from a re-analysis of the deposited data

Results flagged for a closer look

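The response to loss of DDX21 differed between the mouse and the human experiment for 6 members, by the interaction test in edgeR with adjustment over 10354 genes, of which 56.3% were called, 35.9% with the mouse effect above. The difference, mouse minus human log2 fold change, was 1.10 for VWF (0.0026 in mouse and -1.09 in human), 1.07 for ITGB3 (0.52 and -0.55), 1.06 for F2RL2 (1.36 and 0.30), 0.99 for TREML1 (0.34 and -0.65), 0.82 for ITGA2B (1.04 and 0.23) and 0.32 for GP1BA (0.39 and 0.068). For ITGB3 each gene was called alone in both experiments with opposite signs. Species, cell source, deletion against hairpin, and time after loss all differ between the experiments and cannot be told apart.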

How the results depend on the processing

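The 4 mouse increases and the 7 human calls held in every alternative fit run, also without WT replicate 3 and cKO replicate 2 together, apart from the 2-fold minimum, which left 2 higher in the mouse and 0 higher and 1 lower in the human cells. Leaving out 1 library gave 4 to 4 mouse members higher, 4 to 5 human members higher, 6 to 6 interaction calls with the mouse effect above and 0 to 1 below. The 1 below was GP9, also called without WT replicate 3 and cKO replicate 2 together. Mouse context genes called lower numbered 10, and 5 to 12 without 1 library (5 without WT replicate 2 or cKO replicate 3, 6 without WT replicate 1). Some uncalled members changed sign, and the cause was not tested. Mouse Vwf was -0.0136 with RLE scaling, with no filter and with DESeq2, -0.025 with voom, and -0.15 to 0.17 without 1 library. Mouse Pf4 was 0.012 with total counts and -0.36 to 0.13 without 1 library. Mouse Selp, at 0.34 with all libraries, was -0.061 without WT replicate 3 and cKO replicate 2, and 0.075 to 0.50 without 1 library. The SELP interaction was -0.34 without both libraries and -0.20 to 0.23 without 1. Mouse Selp held 10 to 24 counts per library, and the BCV (spread between libraries beyond counting) was 10.5% in the mouse and 2.23% in the human cells.

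Deviations of same-numbered libraries from their group means correlated at 0.644, -0.421 and 0.0864 in the mouse and at -0.0283 to -0.00032 in the human cells. The mouse values differed in sign between replicate numbers. Deviations from a mean of 3 libraries depend on each other, so these values do not settle whether the numbers pair the mouse libraries. With a replicate block the member counts were 4 higher and 0 lower in the mouse and 4 and 3 in the human cells, and mouse Vwf was -0.0147. Mouse Gp9 was -0.47 (adjusted p 0.152), still not a call. In the interaction with this block, 1 member, GP9, was called with the mouse effect below (adjusted p 0.0119).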
